A study of Mus musculus with 70 samples.

Results

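Gcg, Glp1r, Gipr, Gfral, Cck, Cckar and Cckbr were followed through an RNA-seq atlas of the mouse brain. These 7 genes, of 34677 in the gene-level table of TPM (transcript abundance per length, scaled to the same total in every library), were taken by name as receptors of gut peptides and the precursors of their ligands that the brain itself makes. The atlas held 70 libraries in 24 groups. The 18 adult regions, in 57 libraries, came from males at postnatal day 56, labelled C57BL/6 and given as C57BL/6NTac in the study's methods. They were the frontal pole cortex (FRP), anterior cingulate area (ACA), entorhinal area (ENT), nucleus accumbens (ACB), ventral tegmental area (VTA), parabrachial nucleus (PB), nucleus of the solitary tract (NTS) and dorsal-vagal complex (DVC), with 5 punches of the hypothalamus and 5 of the cerebellum. The hypothalamus was sampled as the arcuate (ARH), paraventricular (PVH) and ventromedial (VMH) nuclei, the dorsomedial nucleus (DMH) and the lateral area (LHA). The cerebellum was sampled as central lobule II (CENT2), culmen lobules IV-V (CUL4-5), uvula (UVU), flocculus (FL) and cerebellar nuclei (CBN). The embryonic regions, in 9 libraries from E14.5 embryos of the same strain, were forebrain (F, 1 library), midbrain (M), hindbrain (H) and the joined terminal and peduncular hypothalamus (THy-PHy). The remaining 4 libraries were feeder-depleted C57BL/6 embryonic stem cells (mESCs) of 2 clones, B6-1 and B6-2. No mouse or embryo was treated, and no group carried an engineered allele. The mESCs were grown, per the study's methods, in medium with leukemia inhibitory factor and added small-molecule inhibitors. Each brain library, save 1 of the ACB, pooled tissue of several mice or embryos, so a p-value below measures the spread between pools. The study used fewer animals than separate pools would need, so libraries of different regions share animals, which the labels do not trace, and the tests treat these libraries as independent.

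Gcg encodes preproglucagon, which the gut and a small set of caudal brainstem neurons cut to glucagon-like peptide 1, the ligand of the receptor encoded by Glp1r. Gipr encodes the receptor of the gut hormone GIP, and Gfral the receptor of the stress hormone GDF15, known from the area postrema and the adjoining NTS. Cholecystokinin, from Cck, is a satiety signal of the gut and one of the most abundant neuropeptides of the cortex. It acts through CCK1 (Cckar), known from vagal afferents and the hypothalamus, and through CCK2 (Cckbr), the widespread receptor of the forebrain.

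Adult libraries held 13409041 to 20647884 estimated counts, the embryonic ones 9074581 to 22229582 and the mESC ones 12985081 to 18501667. Dbh, the enzyme that makes noradrenaline and marks noradrenergic neurons of the hindbrain, stood at 3.38 to 20.7 TPM in the NTS and 7.62 to 9.63 TPM in the DVC, against a hypothalamic mean of 0.0483 TPM. Pomc and Agrp, which mark the ARH, averaged 551 and 132 TPM there and at most 11.5 and 1.71 TPM in the other hypothalamic punches. Nr5a1, which marks the VMH, was highest there at 33.6 TPM, but the VMH punches also held the lateral-hypothalamic peptides Hcrt and Pmch at 799 and 3525 TPM, against 1446 and 4539 TPM in the LHA. Sim1, which marks the PVH, stood at 2.13 and 5.79 TPM in the PVH, overlapping the DMH (2.98 to 4.90 TPM). NTS replicate 1 stood apart through the choroid plexus markers, which summed to 10710 TPM there and to 6.53 to 13.8 TPM in the other 3 NTS libraries.

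Of the 168 pairs of gene and group, 75 had a mean of 1 TPM or more and 93 were below 1 TPM. Cck was the most abundant and the most widespread of the genes, with 22 groups at 1 TPM or more and only the mESC clones below it. Cckbr reached 1 TPM in 19 groups, all but UVU, M, F and the mESC clones. Gipr reached it in 12 groups, Cckar in 11 and Glp1r in 9. Gcg reached it in DVC and H alone. Gfral was below 1 TPM in all 24 groups and in each of the 70 libraries. In the NTS, Gcg (0.0269 TPM) and Gfral (0.0697 TPM) were below 1 TPM, while in the DVC Gfral (0.298 TPM) was the only one of the 7. In all 5 hypothalamic punches Gcg and Gfral were below 1 TPM, and Gipr was too in ARH, PVH, DMH and VMH. TPM are scaled to transcript length, so these levels can be set side by side between genes, with a limit. A gene's TPM sums its transcripts and need not follow its counts. Cckar stood at 0.468 TPM from 1 count in ENT replicate 2 and at 0.1005 TPM from 3.05 counts in FRP replicate 1. In PB replicates 1 and 2 it stood at 3.47 and 5.69 TPM from 79.4 and 77.8 counts.

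**Figure D1:**
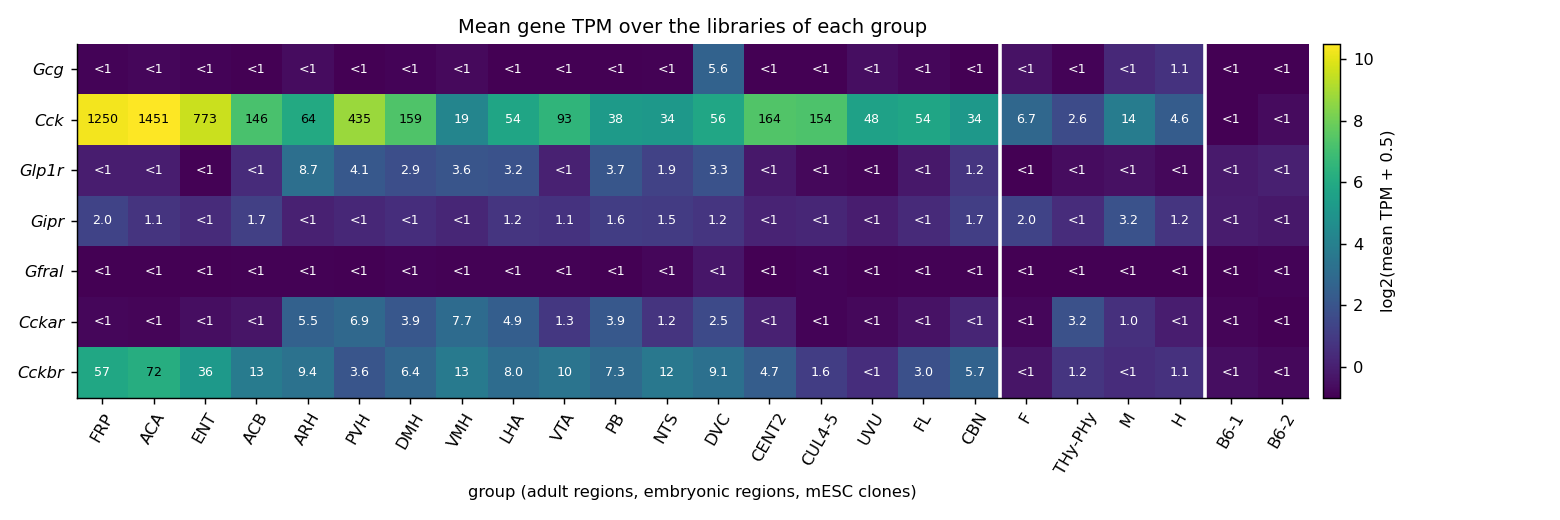
Mean gene TPM of the 7 genes (rows) in the 24 groups (columns: 18 adult regions, 4 embryonic regions and 2 mESC clones, divided by white lines), with color for log2(mean TPM + 0.5) and the mean TPM printed in each cell, or <1 where it is below 1 TPM. Cck fills the row from 1451 TPM in ACA to 2.60 TPM in THy-PHy among brain groups, Gcg passes 1 TPM in 2 columns and Gfral in none.

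The NTS was compared with the DVC, the other punch of the caudal hindbrain, to ask which of the 7 genes separate these punches. The dorsal-vagal complex is the wider structure and takes in the NTS, so the names do not mark separate nuclei. Gcg did, and it was the only one called. Cck, Cckar and Gfral were lower in every NTS library than in every DVC library, without passing the test or, for Gfral, without entering it. A gene was called when edgeR's quasi-likelihood test over all genes gave a Benjamini-Hochberg adjusted p below 0.05 together with a log2 fold change beyond -1 or 1. Of the 6 genes tested, 1 was called lower in the NTS and 0 higher, where 0.0601% of the 19980 genes tested were called lower, 0.01% higher and 0.0701% in either direction. The median log2 fold change of the 6 was -0.74, against 0 over all genes tested. By TPM alone, 4 of the 7 genes did not overlap between the NTS and DVC libraries, all lower in the NTS, as did 7.71% of all genes detected there (9.68% in either direction). In the study's sampling scheme the NTS and the DVC were punched at different coronal levels. A low NTS value therefore holds for the levels punched as NTS and not for the whole nucleus.

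Gcg (ENSMUSG00000000394.15, chr2:62474530-62483650, minus strand, GRCm38) stood at 9.34, 6.58 and 0.763 TPM in the 3 DVC libraries, from 75, 48 and 4 counts. In the 4 NTS libraries it stood at 0.108, 0, 0 and 0 TPM, from 1, 0, 0 and 0 counts. Every DVC library thus lay above every NTS library, but DVC replicate 3 held less than the other two by far, and the DVC mean was 5.56 ± 4.38 TPM (SD, n = 3). The log2 fold change was -6.80 (SE 1.13, edgeR adjusted p = 0.00496). Since a single count sets the NTS level, the size is better read from the counts. The DVC held 127 counts (2.45 CPM, counts scaled to library totals) and the NTS 1 count (0.0146 CPM), a ratio of 168 with an exact 95% interval from 29.5 to 6671, which covers counting error only. Leaving out 1 DVC library at a time moved the ratio between 98.8 (17 to 3976, without replicate 1) and 235 (41.4 to 9352, without replicate 3). A count of 0 in an NTS library allows up to 3 counts, or 0.175 CPM. With DESeq2 the fold change was of like size but was not called (-7.08, adjusted p = 0.533). Over all alternatives the adjusted p ran from 1.27e-09 to 0.533, and from 0.00116 to 0.0473 with edgeR and each library left out. An exact two-sided permutation test over the 35 groupings of these 7 libraries gave p = 0.0571, the smallest it can give. In bulk punches, fewer cells of a type and less RNA per cell cannot be told apart.

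The 250 bases before the RefSeq start of Gcg (chr2:62483654-62483903, minus strand, GRCm38.p6) are shown because this gene was the one most unequal between the 2 hindbrain punches. The letters TATAAA, the TATA box, were searched on both strands and are in capitals. They occur at -24 on the gene's strand and, as TTTATA, at -72 on the other, and 12.4% of 32851 RefSeq promoters of the same length hold them.
Gcg: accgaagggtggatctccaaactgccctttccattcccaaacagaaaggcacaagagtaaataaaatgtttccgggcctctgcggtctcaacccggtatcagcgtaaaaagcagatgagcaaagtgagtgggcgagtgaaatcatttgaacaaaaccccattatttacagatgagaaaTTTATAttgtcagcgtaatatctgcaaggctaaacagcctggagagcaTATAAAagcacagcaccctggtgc

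Markers differed between these punches beside Gcg. Of the 12 markers of dorsal vagal neurons, 1 was called, where 0.0701% of all genes were. It was Hoxb5, a patterning gene of the caudal hindbrain (log2 fold change -3.90, edgeR adjusted p = 0.0122). Hoxb5 stood at 3.14 to 7.08 TPM in the NTS and 60.1 to 91.0 TPM in the DVC. The 12 markers summed to 58.0 to 93.6 TPM in the NTS and 199 to 251 TPM in the DVC. Prlh, the precursor of a peptide of noradrenergic NTS neurons, was at 0 in all 4 NTS libraries and at 13.7, 3.57 and 3.39 TPM in the DVC, without being called (edgeR adjusted p = 0.381). The 6 motor neuron markers were each lower in the NTS at an unadjusted edgeR p under 0.05, with 0 called after adjustment, 0 by DESeq2 and 1 by limma (median log2 fold change -2.28). They summed to 21.7 to 51.4 TPM in the NTS and to 358, 83.1 and 76.4 TPM in DVC replicates 1, 2 and 3. The sums of replicates 2 and 3 were close, unlike their Gcg. Chat, Slc5a7 and Mnx1 were higher in replicate 3 than in replicate 2, while Gcg was lower. The part of these markers in the Gcg result was not tested.

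Gfral (ENSMUSG00000059383.14, chr9:76164102-76213657, minus strand) was at 0.292, 0.137 and 0.466 TPM in the DVC (5, 3 and 8 counts) and at 0.119, 0, 0.108 and 0.0519 TPM in the NTS (2, 0, 2 and 1 counts). The DVC libraries were the 3 highest of all 70, and 52 libraries were at 0. Only 34 counts fell on Gfral in the whole atlas, 16 of them in the DVC, and the gene did not pass the filter on low counts. Per total count the DVC exceeded the NTS 4.22 times (exact 95% interval 1.48 to 14.7) and the hypothalamus, with 5 counts in 14 libraries, 14.6 times (5.12 to 51). Without DVC replicate 3 the interval against the NTS reached below 1 (3.06, 0.881 to 11.9).

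Cck (ENSMUSG00000032532.7, chr9:121489824-121495694, minus strand) stood at 42.9, 41.2, 29.8 and 23.9 TPM in the NTS and 49.5, 45.3 and 73.6 TPM in the DVC. The groups did not overlap, the gap between NTS replicate 1 and DVC replicate 2 being small. The log2 fold change was -0.77 (SE 0.42, edgeR adjusted p = 0.808). Cckar (ENSMUSG00000029193.7, chr5:53697776-53707705, minus strand) stood at 1.30, 0.907, 0.967 and 1.52 TPM in the NTS and 2.54, 2.40 and 2.43 TPM in the DVC. Its groups did not overlap either, and the DVC libraries were close to one another, yet the log2 fold change of -1.0 (SE 0.53) did not pass (edgeR adjusted p = 0.787). The exact permutation p was 0.0571, its smallest, for Cck, Cckar and Gfral alike.

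Glp1r (ENSMUSG00000024027.8, chr17:30901817-30940791, plus strand) stood at 1.58, 2.89, 1.26 and 1.82 TPM in the NTS and 3.50, 2.33 and 3.97 TPM in the DVC. NTS replicate 2 reached into the range of the DVC (log2 fold change -0.71, SE 0.46, edgeR adjusted p = 0.878). The antisense genes AC174471.1 and AC165951.1 overlap Glp1r. The libraries were strand-specific, but whether the quantification used the strand is not given in the sources used here. Cckbr (ENSMUSG00000030898.15, chr7:105425731-105470898, plus strand) stood at 12.4, 12.8, 10.4 and 11.8 TPM in the NTS and 8.02, 10.8 and 8.39 TPM in the DVC, with DVC replicate 2 inside the range of the NTS (0.45, SE 0.31, edgeR adjusted p = 0.91). Gipr (ENSMUSG00000030406.7, chr7:19156061-19166127, minus strand) stood at 1.5, 1.57, 1.84 and 1.04 TPM in the NTS and 0.953, 0.984 and 1.66 TPM in the DVC, where the groups overlapped (0.32, SE 0.34, edgeR adjusted p = 0.964).

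**Figure D2:**
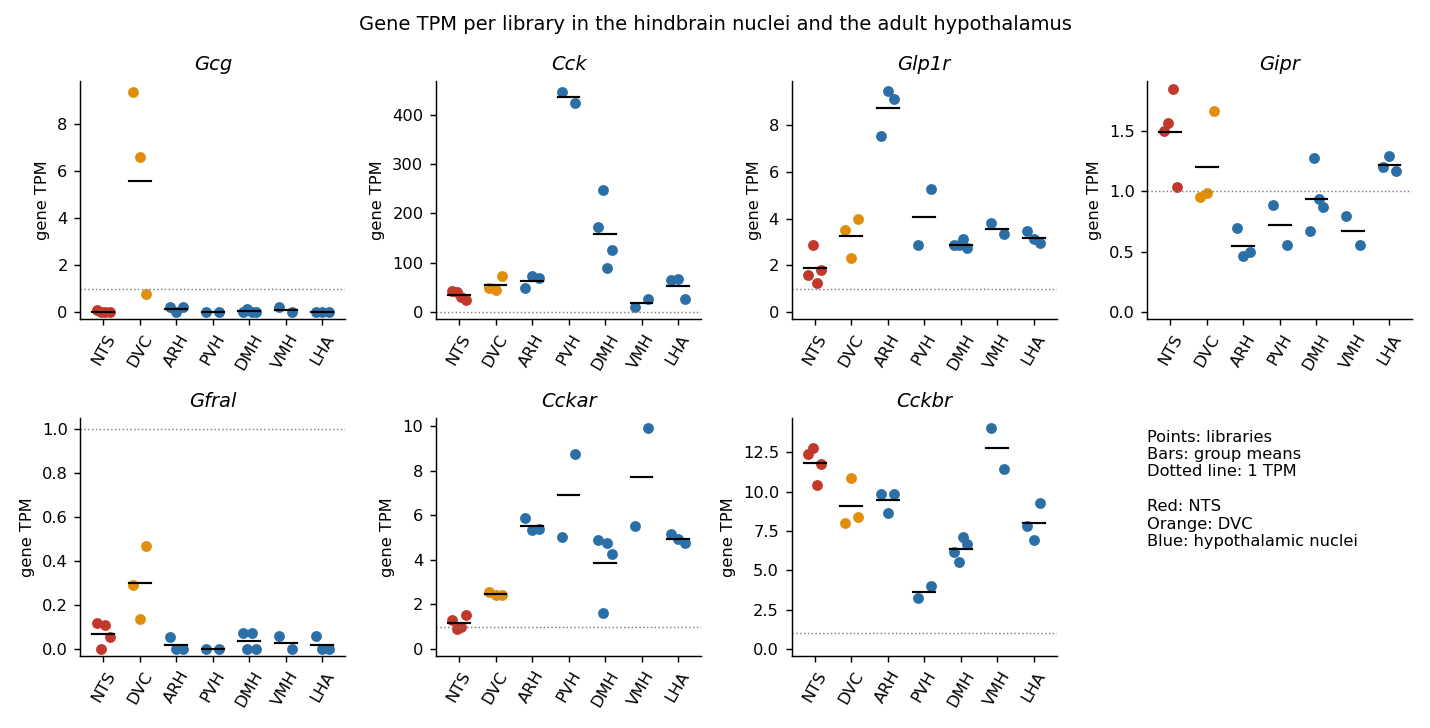
Gene TPM of the 7 genes in each library (points) of NTS, DVC and the 5 hypothalamic punches, with the group mean as a bar and 1 TPM as a dotted line; each panel has its own linear axis. Gcg rises above 1 TPM in 2 of the 3 DVC libraries alone, Cck peaks in the PVH (446 and 424 TPM), Glp1r in the ARH (7.53 to 9.46 TPM), and Gfral stays below 0.466 TPM or at it throughout.

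The NTS and the DVC were each compared with the mean of the 5 hypothalamic punches, to set the hindbrain against the hypothalamic sites of the same peptides. Both comparisons use the same 14 hypothalamic libraries, and their hindbrain libraries are those of the comparison above, so they are not independent. In the NTS, Cckar and Cck were lower and Gipr was higher than in the hypothalamus. In the DVC, Gcg alone was called, and higher. Of the 6 genes tested, 1 was called higher in the NTS, where 5.69% of all genes were, and 2 lower, where 5.33% were (11% in either direction). In the DVC 1 was called higher, where 4.58% of all genes were, and 0 lower, where 3.92% were (8.5% in either direction). The median log2 fold change of the 6 was -0.37 for the NTS and 0.07 for the DVC, against -0.01 and -0.02 over all genes.

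Gcg was at 0 in 10 of the 14 hypothalamic libraries, and its highest value there was 0.231 TPM in VMH replicate 1. All 3 DVC libraries exceeded that value, and the log2 fold change was 7.01 (SE 0.74, edgeR adjusted p = 3.73e-09). By counts, 127 in the DVC against 5 in the hypothalamus gave a ratio of 116 (exact 95% interval 48.4 to 363). The NTS, with its single count, gave 0.21 (SE 0.34, edgeR adjusted p = 0.689), a value that turned negative under other tools and without NTS replicate 1.

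Cck ranged from 10.1 TPM to 446 TPM over the 14 hypothalamic libraries, with a median of 71.3 TPM. The NTS libraries, at 23.9 to 42.9 TPM, lay inside that range. Against the mean of the 5 punches the log2 fold change was -1.19 for the NTS (SE 0.34, edgeR adjusted p = 0.00342) and -0.42 for the DVC (SE 0.36, edgeR adjusted p = 0.4). Cckar ranged from 1.62 TPM, in DMH replicate 2, to 9.93 TPM, in VMH replicate 2. The 4 NTS libraries all lay below the lowest of the 14 (log2 fold change -2.09, SE 0.45, edgeR adjusted p = 1.15e-04). The DVC libraries lay above DMH replicate 2 and below the other 13, a difference of -1.09 (SE 0.47) that was not called (edgeR adjusted p = 0.0641) but was without DMH replicate 2 (-1.14, edgeR adjusted p = 0.0483, against up to 0.162 without another library).

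Gipr ranged from 0.463 to 1.30 TPM over the hypothalamic libraries, and NTS replicates 1, 2 and 3 lay above all of them while replicate 4, at 1.04 TPM, lay among them. The log2 fold change was 1.19 for the NTS (SE 0.24, edgeR adjusted p = 6.72e-05) and 0.87 for the DVC (SE 0.28, edgeR adjusted p = 0.0114, under the fold limit, which it passed without DVC replicate 2 at 1.03). On log2(TPM + 0.5) with limma the NTS difference was 0.60 and no longer above 1. Glp1r was lower in the NTS (log2 fold change -0.96, SE 0.36, edgeR adjusted p = 0.0289) by just less than the fold limit, which it passed without NTS replicate 2 (-1.24) or without PVH replicate 1. The DVC value for Glp1r was -0.25 (SE 0.38, edgeR adjusted p = 0.689). Cckbr gave 0.84 for the NTS (SE 0.23, edgeR adjusted p = 0.00189) and 0.39 for the DVC (SE 0.26, edgeR adjusted p = 0.266), neither past the fold limit.

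**Figure D3:**
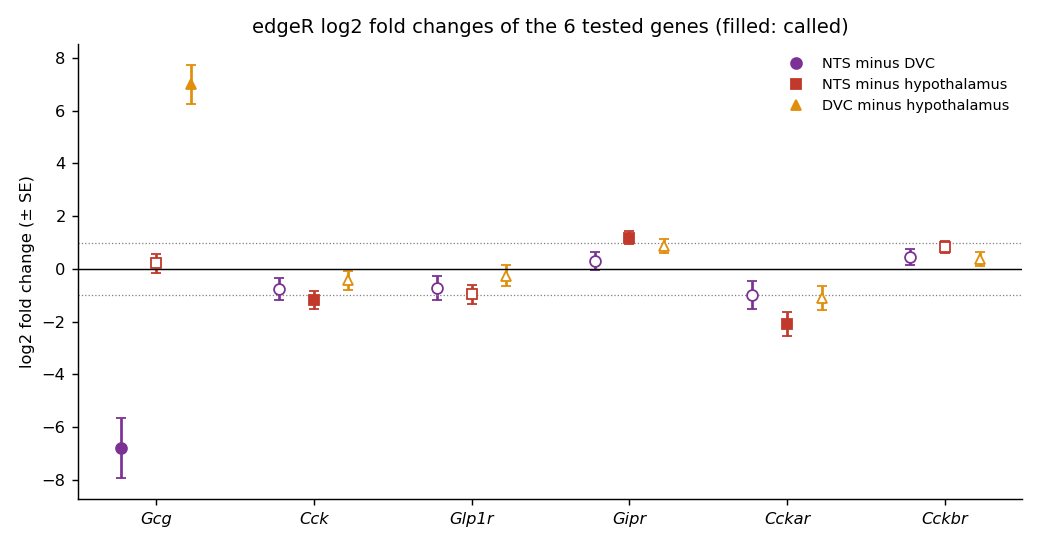
Log2 fold changes from edgeR (vertical axis, with SE as bars) of the 6 tested genes for NTS minus DVC, NTS minus hypothalamus and DVC minus hypothalamus; filled symbols were called and dotted lines mark -1 and 1. Gcg stands at -6.80 and 7.01 in the comparisons with the DVC and near 0 (0.21) for NTS minus hypothalamus, and the other values lie between -2.09 and 1.19.

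By group means, the balance of the CCK receptors differed between these sites. Cckbr over Cckar, as a ratio of mean TPM, was 10.1 in the NTS (7.72 to 14.1 by library) and 3.70 in the DVC (3.16 to 4.52). These ranges did not overlap. The ratio of means was 1.62 to 1.71 in ARH, DMH, LHA and VMH. By library it ran from 1.61 to 1.84 in ARH and from 1.40 to 1.95 in LHA. It ran from 1.15 to 2.54 in VMH and from 1.25 to 3.43 in DMH, which reached into the range of the DVC. In the PVH it was 0.524 (0.454 and 0.645), and Cckar was above Cckbr in both libraries. Over the atlas Cckbr was above Cckar in every library of 21 groups, and Cckar above Cckbr in every library of PVH and THy-PHy. Ratios of this kind were not tested.

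**Figure D4:**
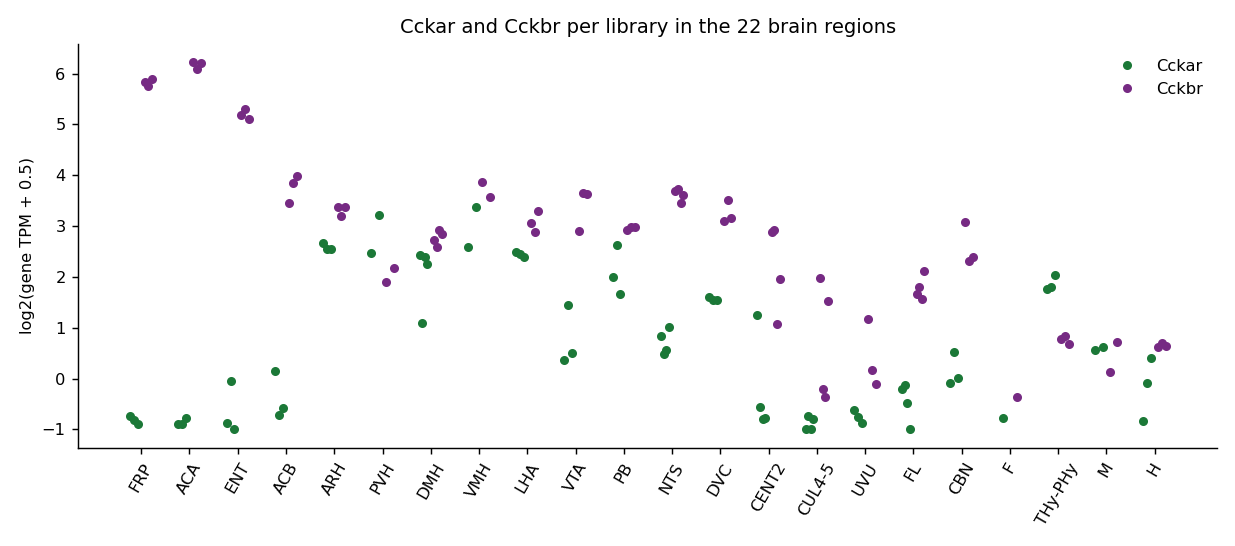
Cckar (green) and Cckbr (purple) as log2(gene TPM + 0.5) in each library (points) of the 18 adult and 4 embryonic regions. Cckbr lies far above Cckar in the 3 cortical areas, the pair approach each other in the hypothalamus and PB, and Cckar lies above Cckbr in the libraries of PVH and THy-PHy.

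Each hypothalamic punch was then compared with the mean of the other 4. These comparisons share their libraries. The PVH had the most Cck and the VMH the least, the ARH had the most Glp1r, and no gene was called in DMH or LHA. Of the 6 tested genes, 2 were called in the PVH, 1 higher (1.42% of all genes) and 1 lower (0.616%), where 2.03% of all genes were called. In the ARH 1 was called higher (4.71%) and 0 lower (2.19%, 6.9% in all), and in the VMH 1 lower (0.681%) and 0 higher (0.791%, 1.47% in all). None was called in the DMH (0.445% of all genes higher, 0.155% lower, 0.601% in all) or in the LHA (2.32% higher, 2.74% lower, 5.06% in all). In DMH and LHA alike, 1 of the 6 had an unadjusted edgeR p under 0.05 (Cck and Gipr), and DESeq2 and limma called 0.

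Glp1r stood at 7.53, 9.46 and 9.12 TPM in the ARH. No other library of the atlas reached these values, the next being PVH replicate 2 at 5.26 TPM, and the log2 fold change was 1.30 (SE 0.35, edgeR adjusted p = 0.00467). PVH (4.06 TPM), PB (3.70), VMH (3.56), DVC (3.26), LHA (3.18), DMH (2.89) and NTS (1.89) followed in mean TPM, each overlapping the next. CBN, at 2.32, 0.869 and 0.491 TPM, was the only other group with a mean above 1 TPM. Pituitary cell markers moved with the ARH, where 4 of 7 were called higher (4.71% of all genes) and 0 lower (2.19%). They were Cga (78.9 TPM), Fshb, Lhb and Pitx1 (7.56 TPM). The 7 markers summed to 80.6 to 128 TPM in the ARH libraries and to 1.94 to 18.7 TPM in those of the other punches, and their part in the Glp1r result was not tested.

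Cck stood at 446 and 424 TPM in the PVH, 172, 248, 89.1 and 126 TPM in the DMH, 48.4, 72.6 and 70.0 TPM in the ARH, 65.8, 67.7 and 27.6 TPM in the LHA, and 10.1 and 27.1 TPM in the VMH. The PVH libraries lay above all other hypothalamic ones, and the VMH libraries below all others. The log2 fold change was 3.08 in the PVH (SE 0.33, edgeR adjusted p = 9.54e-10) and -2.74 in the VMH (SE 0.52, edgeR adjusted p = 6.22e-04). The VMH call was lost without VMH replicate 1 (-2.19, edgeR adjusted p = 0.08, the others giving 3.39e-04 upwards). The DMH gave 1.05 (SE 0.30, edgeR adjusted p = 0.0732) and was called with the replicate block (1.12, edgeR adjusted p = 0.0376), without DMH replicate 3 (1.28) and without VMH replicate 2 (1.27), while the adjusted p reached 0.21 under other tools and models and 0.587 without another library. Cortical neuron markers moved as well. Of 6, 2 were called higher and 0 lower in the PVH (Slc17a7 3.06 and Tbr1 3.00), and in the DMH Slc17a7 (2.26) and Neurod6 (2.27) were called higher and Tbr1 (-2.21) lower. In the VMH Slc17a7 was called lower (-3.04). Shares over all genes were 1.42% higher and 0.616% lower in the PVH, 0.445% and 0.155% in the DMH and 0.681% lower in the VMH. The 6 summed to 69.6 and 70.0 TPM in the PVH, 20.9 to 57.1 TPM in the DMH, 13.7 to 44.8 TPM in the LHA, 8.09 to 10.1 TPM in the ARH and 6.21 and 11.3 TPM in the VMH, with Emx1 below 1 TPM on average in each punch. The part of these markers in the Cck results was not tested. Whether the Hcrt and Pmch levels of the VMH punches or the Sim1 levels of the PVH punches bear on these values was not tested.

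Cckbr stood at 3.23 and 3.98 TPM in the PVH, below every other hypothalamic library, the lowest of which was 5.55 TPM in DMH replicate 2. Its log2 fold change was -1.30 (SE 0.36, edgeR adjusted p = 0.0202), a call lost without PVH replicate 1 (-1.16, edgeR adjusted p = 0.406) or 2 (-1.45, edgeR adjusted p = 0.143). In the VMH Cckbr was at 14.1 and 11.5 TPM, above all others, with 0.95 (SE 0.30, edgeR adjusted p = 0.0555). Cckar was highest in the VMH (5.52 and 9.93 TPM) and the PVH (5.01 and 8.77 TPM), followed by ARH (5.86, 5.36 and 5.37 TPM) and LHA (5.14, 4.93 and 4.75 TPM), with no call. Gipr was highest in the LHA (1.2, 1.30 and 1.17 TPM) with 0.89 (SE 0.29, edgeR adjusted p = 0.0215), below the fold limit, which it passed without PVH replicate 1 at 1.02, and lowest in the ARH (0.697, 0.463 and 0.495 TPM).

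The cortex carried by far the most Cck and Cckbr. FRP, ACA and ENT were compared with the mean of the other adult regions, and 4 of the 6 tested genes were called, 2 higher (8.17% of all genes) and 2 lower (7.95%), where 16.1% of all genes were called. Cck ranged from 713 to 1844 TPM in the 9 cortical libraries, with group means of 1451 ± 344 TPM in ACA (SD, n = 3), 1250 ± 276 TPM in FRP (SD, n = 3) and 773 ± 52.8 TPM in ENT (SD, n = 3). No other library passed 446 TPM, and the log2 fold change was 4.01 (SE 0.15, edgeR adjusted p = 1.28e-28). Cckbr ranged from 34.1 to 74.1 TPM there, with no other library above 15.3 TPM, in ACB replicate 3 (3.29, SE 0.12, edgeR adjusted p = 2.14e-29). Cckar was at 0.0974 TPM on average in the cortex (-4.38, SE 0.48, edgeR adjusted p = 1.30e-11) and Glp1r at 0.311 TPM (-2.49, SE 0.37, edgeR adjusted p = 5.05e-08), both below 1 TPM in all 3 areas. Gipr, at 1.31 TPM, gave 0.55 (SE 0.16).

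The 250 bases before the RefSeq starts of Cck (chr9:121495695-121495944, minus strand) and Cckbr (chr7:105425481-105425730, plus strand) are shown because ligand and receptor were called higher together in the cortex. Capitals mark CACGTG, the E-box, at -66 in Cck and -106 in Cckbr, and TGCGTCA, an element like the cyclic AMP response element, at -49 in Cck. Both strands were searched. CACGTG is in 6.02% and TGCGTCA in 1.75% of the 32851 promoters, and both sets of letters were chosen after the sequences had been read. The GC box CCGCCC (32.7% of promoters) and the AP-1 site TGAGTCA (4.46%) were searched too and are not in these windows. A match is a description of letters and not of a bound site.
Cck: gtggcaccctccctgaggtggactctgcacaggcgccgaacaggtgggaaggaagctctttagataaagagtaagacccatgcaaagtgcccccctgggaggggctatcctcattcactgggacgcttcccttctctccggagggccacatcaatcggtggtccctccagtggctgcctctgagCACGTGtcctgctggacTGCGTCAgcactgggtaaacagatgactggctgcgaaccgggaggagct
Cckbr: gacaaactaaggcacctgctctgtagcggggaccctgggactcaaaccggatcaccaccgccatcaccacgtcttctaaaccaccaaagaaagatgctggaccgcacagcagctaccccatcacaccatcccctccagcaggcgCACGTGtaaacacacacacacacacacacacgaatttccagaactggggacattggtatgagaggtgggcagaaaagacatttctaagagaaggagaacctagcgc

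Among the remaining adult regions, Cck was at 164 TPM in CENT2, 154 TPM in CUL4-5 and 146 TPM in ACB, where replicate 1 was at 21 TPM and the other 2 at 203 and 214 TPM. The VTA, compared with the mean of the other adult regions, had 1 of 6 genes called higher (6.89% of all genes) and 0 lower (3.65%, 10.5% in all). It was Cckar, with a log2 fold change of 1.5 (SE 0.39, edgeR adjusted p = 0.00141). Its VTA values were 0.787, 2.22 and 0.916 TPM. The comparison averages log levels over regions, many of them near 0, and by the plain mean of TPM the VTA (1.31 TPM) was below the other regions (2.28 TPM). On log2(TPM + 0.5) with limma the difference was 0.04 and not called. Mitochondrial genes held 39.6% of the TPM in VTA replicate 1, 6.03% in replicate 2 and 14.2% in replicate 3, and the call held without each of them. The PB, a relay of NTS output, was compared with the mean of NTS and DVC, and edgeR and DESeq2 called 0 of the 6 genes (1.47% of all genes higher, 0.836% lower and 2.3% in all by edgeR), of which 2 had an unadjusted edgeR p under 0.05, Gcg and Cckbr. Limma called Gcg lower in the PB. Glp1r stood at 3.23, 3.62 and 4.24 TPM in the PB and Cckar at 3.47, 5.69 and 2.68 TPM, while Gcg was at 0 in all 3 libraries (log2 fold change -5.0, SE 2.05, edgeR adjusted p = 0.156).

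In the embryonic regions Cck, Cckbr and Glp1r were lower than in their adult counterparts, while Gcg and Gipr were not called. THy-PHy was compared with the adult hypothalamus, and 3 of the 6 genes were called lower (20% of all genes), 0 higher (18.2%, 38.2% in all). The H was compared with the mean of NTS and DVC, and 4 were called lower (21%), 0 higher (22.4%, 43.4% in all). The study's sample overview lists no collection batch that holds both embryonic and adult samples, so stage and batch cannot be told apart. Cck was at 2.95, 2.81 and 2.03 TPM in THy-PHy (log2 fold change -5.23, SE 0.60, edgeR adjusted p = 6.81e-11) and at 2.33, 7.88 and 3.65 TPM in H (-3.70, SE 0.59, edgeR adjusted p = 2.70e-07). Glp1r was at 0.0741 to 0.249 TPM in THy-PHy (-4.62, SE 0.59, edgeR adjusted p = 1.14e-09) and at 0.0713 to 0.107 TPM in H (-4.70, SE 0.68, edgeR adjusted p = 2.19e-08). Both genes lay below every adult library of their comparisons. Cckbr was at 1.2 TPM in THy-PHy (-2.57, SE 0.35) and 1.08 TPM in H (-3.20, SE 0.38), with edgeR adjusted p = 7.71e-09 and adjusted p = 1.72e-10.

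Cckar was lower in sign in both embryonic comparisons but was called in H alone. In THy-PHy it stood at 2.90, 2.99 and 3.61 TPM, above Cckbr in all 3 libraries, and was not called against the adult hypothalamus (-0.76, SE 0.45, edgeR adjusted p = 0.135). In H it was at 0.0565, 0.444 and 0.825 TPM and called lower (-2.04, SE 0.58, edgeR adjusted p = 0.00169). Gcg stood at 0.613, 0.976 and 1.78 TPM in H (4, 8 and 16 counts), 0.426 and 1.07 TPM in M and 0.243 TPM in F. The H and DVC libraries overlapped, and the difference from the hindbrain punches was not called (1.31, SE 0.82, edgeR adjusted p = 0.16). H replicate 1, with the lowest Gcg, Cckar and Gipr of the 3, had the smallest total of the atlas (9074581 counts) and a mitochondrial share of 22.6%, and its part in these values was not tested.

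Gipr was highest in M, at 3.44 and 3.05 TPM, above every other library, of which FRP replicate 3 came closest at 2.52 TPM. FRP (2.26, 1.15 and 2.52 TPM), F (1.97 TPM), ACB (1.75 TPM on average), CBN (1.68), PB (1.60) and NTS (1.49) followed with overlapping libraries. No library was at 0, and the means of the 18 adult regions spanned 4.44 times, from UVU (0.444 TPM) to FRP. Much of this signal was not on the coding transcript. ENSMUST00000094790.4, the coding form, took 45.0% of all Gipr counts, and the retained-intron form ENSMUST00000206857.1 took 50.7%. The coding form had a mean of 1 TPM or more in M alone (1.34 TPM) of the 24 groups. In the NTS it stood at 0.432, 0.785, 1.21 and 0.481 TPM and in the DVC at 0.273, 0.600 and 0.159 TPM, so that the 2 groups overlapped. In the hypothalamus it reached 0.680 TPM, in LHA replicate 3, so NTS replicates 1 and 4 lay within the hypothalamic range. The call of Gipr in NTS against the hypothalamus is on the sum of all forms, and the coding form was not tested alone. The retained-intron form held 63.7% of Gipr TPM in the DVC and 40.3% in the NTS, and was at 0 in all 3 ARH libraries, where 82.3% was coding. The split between forms that share exons is an estimate of the quantification.

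**Figure D5:**
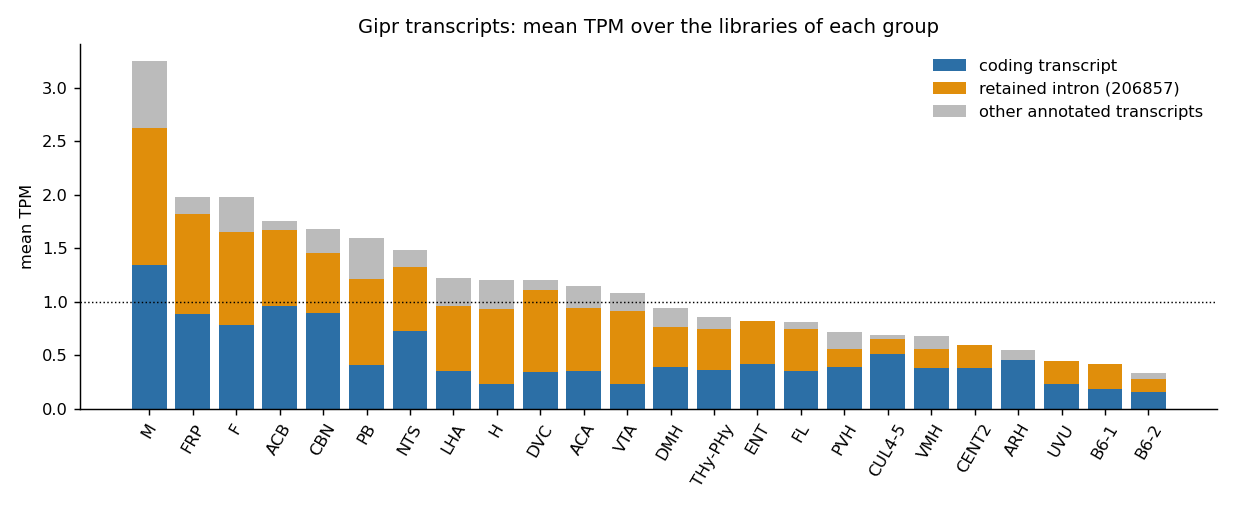
Mean TPM of the Gipr coding transcript, the retained-intron transcript ENSMUST00000206857.1 and other annotated transcripts, stacked, in the 24 groups from highest to lowest sum; the dotted line marks 1 TPM. The sum passes 1 TPM in 12 groups and the coding part in M alone (1.34 TPM).

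Other genes of these pathways were taken from lists. Between NTS and DVC edgeR called 0 of the 6 tested of 10 other ligands (median log2 fold change 0.31), 0 of 20 other receptors (-0.19), 0 of 12 genes of precursor processing and breakdown (-0.004188) and 0 of 17 of receptor signalling (-0.06), against a median of 0 over all genes. Over all genes 0.0701% were called by edgeR. At an unadjusted p under 0.05 there were 1, 3, 1 and 2 genes of these lists, DESeq2 called 0, 0, 0 and 0 and limma 0, 0, 0 and 1. Ret, the coreceptor that Gfral needs to signal, was far more abundant than Gfral, at 34.4 TPM in the NTS and 45.3 TPM in the DVC. Gip and Gdf15, the ligands of Gipr and Gfral, named here after their values were seen, were near 0 in the same punches, Gip at 0.0572 and 0 TPM and Gdf15 at 0.0815 and 0.0305 TPM in the NTS and DVC.

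Against the hypothalamus, Vip, a vasoactive peptide precursor, was higher and Gast, the gastrin precursor whose product binds CCK2, was lower in both hindbrain punches. They were the 2 called of the 6 ligands tested in each (median log2 fold changes -0.41 and -0.72). Over all genes 11% were called in the NTS and 8.5% in the DVC, in either direction. Vip stood at 18.3 TPM in the NTS and 11.2 TPM in the DVC against 1.07 TPM (log2 fold changes 4.51 and 3.73, edgeR adjusted p = 3.71e-13 and adjusted p = 1.96e-09). Gast stood at 0.0914 and 0.263 TPM against 2.13 TPM (-3.69 and -2.63, edgeR adjusted p = 0.00135 and adjusted p = 0.0235).

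Of the 20 other receptors, 7 were called lower in the NTS (5.33% of all genes) and 0 higher (5.69%), with a median log2 fold change of -0.64. In the DVC 6 were lower (3.92% of all genes) and 1 higher (4.58%), with a median of -0.27. Ramp3, an accessory protein of the amylin receptor, was at 0.968 TPM in the NTS and 2.60 TPM in the DVC against 40.0 TPM in the hypothalamus (-4.38 and -3.00, edgeR adjusted p = 1.57e-14 and adjusted p = 1.69e-09). Calcr, the calcitonin receptor that joins it, was at 0.990 and 1.15 TPM against 16.9 TPM (-3.65 and -3.52, edgeR adjusted p = 1.07e-07 and adjusted p = 4.38e-06). Gfra2, of the family of Gfral, and Ntsr1, a neurotensin receptor, were lower in both as well (Gfra2 -1.53 and -1.12). Ghsr, the ghrelin receptor, was lower in both (-1.83 and -1.01), Vipr2 and Npy2r in the NTS (-1.69 and -1.42) and Glp2r in the DVC (-1.45). Ret was the receptor called higher, in the DVC (1.17, edgeR adjusted p = 9.71e-07), while in the NTS it gave 0.86.

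Of the 12 genes of precursor processing and breakdown, 2 were called lower in the NTS, Pam (-1.29) and Pcsk1 (-1.25), and 1 in the DVC, Pam (-1.03), with list medians of -0.20 and -0.14. Over all genes 5.33% were called lower in the NTS and 3.92% in the DVC. Pcsk1 encodes a convertase that cuts preproglucagon and Pam amidates peptide ends. Of 17 genes of receptor signalling, 0 were called by edgeR in the NTS (median -0.12), where 10 had an unadjusted p under 0.05, DESeq2 called 0 and limma 1. In the DVC 1 was called higher (4.58% of all genes), the G protein gene Gna14 (2.03, edgeR adjusted p = 7.03e-04), with a median of -0.08.

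The markers moved with the punches. Of the 12 dorsal vagal markers, 10 were higher in the NTS and 11 in the DVC than in the hypothalamus, Hoxc4 (10.1 and 12.09) and Hoxb5 (8.65 and 12.55) among the largest log2 fold changes, and Th was lower in both (-1.76 and -1.75). Of the 13 markers of hypothalamic neurons, 11 were lower in each. Over all genes 5.69% were called higher in the NTS and 4.58% in the DVC, and 5.33% and 3.92% lower. The 5 choroid plexus markers were all called higher in the NTS than in the hypothalamus, where they summed to 5.00 to 45.7 TPM by library, and the 3 of the 7 genes called in that comparison were called without NTS replicate 1 too. Against the DVC 0 of these 5 were called by edgeR (median 3.97), where 5 had an unadjusted p under 0.05, DESeq2 called 1 and limma 0.

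For each gene with a mean of 1 TPM in an adult region, the genes most like it were taken by Pearson r of log2(TPM + 0.5) over the 18 adult region means, among 17955 genes. These r are descriptions over regions that share libraries. Gcg was followed by Hoxb6 (0.988), AC159896.1 and Gm15610 (both 0.986), each highest in the DVC, on which these r rest, since Gcg was near 0 in every other adult region. Glp1r was followed by Chic1 (0.952), Gabre (0.950), a GABA-A receptor subunit, and Slc27a3 (0.949), and Cckar by Pgr15l (0.972), Gpx3 (0.969) and Tmie (0.969), all highest in the hypothalamus. Cckbr was followed by Zbtb16 (0.953), the serotonin receptor Htr2a (0.945) and Fhl2 (0.938), all highest in ACA. Cck was followed by Otub2 and Ctnnd2 (both 0.913) and Camk2n1 (0.907), each highest in a cortical area. Gipr, the flattest of the genes, had the loosest likeness, with Pou3f3 (0.887), Meis2 (0.874) and Dtnbp1 (0.873), highest in ACB. Among the 7 genes themselves, Glp1r and Cckar were the most alike (0.918), and Cck was more like Cckbr (0.560) than like Cckar (-0.44) or Glp1r (-0.41).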

How the data were processed

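Poly(A) RNA of 70 libraries was sequenced as single strand-specific reads. Per the labels and the study's methods, the authors made FASTQ files with CASAVA 1.8.2 and pseudoaligned them with kallisto to the Ensembl cDNA of GRCm38. They deposited estimated counts per transcript and TPM (abundance per transcript length, scaled within each library), the latter also summed per gene. Both were used, and TPM serve for levels.

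For tests, the deposited estimated counts were summed per gene through GENCODE M21, which matched 98.8% of 109282 transcripts, and rounded. Of 32244 genes in both tables, 365 differed in TPM, none of them a gene reported here. edgeR 4.0.16 (TMM, filterByExpr, quasi-likelihood test) was fitted to all 24 groups in R 4.3.3, with Benjamini-Hochberg adjustment over all genes tested. Calls needed an adjusted p below 0.05 together with a log2 fold change beyond -1 or 1. A contrast with several regions on 1 side took the mean of their log levels.

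The alternatives were DESeq2 1.42.0, limma 3.58.1 on log2(TPM + 0.5) and log2(TPM + 0.1), other filters and size factors, fits without the mESC libraries or on the compared groups alone, a replicate block, and each library left out. In the cortex and VTA comparisons only libraries of the cortex or of the VTA were left out. The edgeR procedure was tested on simulated data. Exact intervals (95%) and floors (3 counts) cover counting error only. Promoters are from RefSeq (GRCm38.p6). The study's sample overview gives batches of collection and preparation for each region but does not tie them to the numbered libraries, so within-batch values could not be given.

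The 7 genes and all lists were chosen with earlier results of these data known. In every comparison the 7 genes are named. From the lists (other ligands, other receptors, precursor processing and breakdown, receptor signalling, dorsal vagal neurons), called genes are named in the comparisons among NTS, DVC and hypothalamus, at most 5 per direction and list. Some items of these and the marker lists are not reported here. Prlh, Ret in the NTS, Gip, Gdf15 and the receptors beyond 5 were named after their values were seen. Markers of motor neurons, choroid plexus, pituitary cells, cortical and hypothalamic neurons checked the punches, and those named were chosen after their values were seen.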

Additional observations from a re-analysis of the deposited data

Results flagged for a closer look

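In groups of 4 libraries, the extreme library was set against the others by Dixon's criterion (its gap over the whole range, critical value 0.829). For normally spread values chance passes it in about 1 of 20 groups, a rate that does not hold where libraries are at 0. Of 32 sets of a gene and a group, 5 passed. Cckar was at 1.88 TPM in CENT2 replicate 1 and at 0.0737 to 0.178 TPM in the other libraries of that lobule. Cck was lowest in the same library, at 134 TPM against 172 to 178 TPM. The other 3 were low values beside libraries at 0, namely Gcg at 0.142 TPM in DMH replicate 2, Gcg at 0.108 TPM in NTS replicate 1, which also held the choroid plexus markers, and Gfral at 0.0634 TPM in FL replicate 1. Any value above 0 passes where all other libraries of the group are at 0, so these 3 carry no weight as outliers.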

How the results depend on the processing

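Of the 21 calls over 13 comparisons, 17 were made under every other tool and model and 19 without each library left out in turn. For the cortex and the VTA these were their own libraries only. Of 57 values not called, 12 changed sign and 6 were called under an alternative. The cause of these changes was not tested.

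The count of members called for NTS against DVC fell from 1 to 0 with DESeq2, and to 0 with the compared groups alone, where Gcg was removed by the filter. For DVC against the hypothalamus it rose from 1 to 2 without a filter (Gfral), with limma on log2(TPM + 0.5), filtered or not, and with the compared groups alone (Cckar). It fell from 2 to 1 for the PVH with limma on log2(TPM + 0.1) (Cckbr), and from 1 to 0 for the VTA under all 3 limma fits (Cckar 0.04, 0.48 and 0.04). It rose from 0 to 1 for the PB under all 3 (Gcg -1.61, -2.75 and -1.61). Gipr in NTS against the hypothalamus fell below the fold limit with limma (0.60, 0.82 and 0.60), and Gcg there, 0.21 and not called, became -0.13 with DESeq2, -0.0727, -0.20 and -0.0727 with limma and -1.40 without NTS replicate 1 (-1.40 to 0.67 with each library left out).

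Leaving out each library gave 1 call throughout for NTS against DVC, 3 to 4 for NTS against the hypothalamus (4 without NTS replicate 2 or PVH replicate 1, Glp1r), 1 to 2 for DVC against the hypothalamus (2 without DMH replicate 2 or DVC replicate 2), 1 to 2 for the PVH (1 without either PVH library), 0 to 1 for the DMH (1 without DMH replicate 3 or VMH replicate 2), 0 to 1 for the VMH (0 without VMH replicate 1) and 0 to 1 for the LHA (1 without PVH replicate 1). It did not change the count for ARH, cortex, VTA, PB, THy-PHy or H. For the cortex and the VTA only their own libraries, 9 and 3, were left out, and not those of the regions they were compared with.

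Pairs of gene and group at the limit numbered 114 at 0.1 TPM, 75 at 1 TPM and 38 at 5 TPM, 71 by the median and 73 to 77 with a library left out. The highest group of each gene was the same by CPM, and that of Cck became FRP by the median.

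The replicate numbers were not taken to pair the libraries, since same-numbered libraries of NTS and DVC did not deviate together in every pair (r 0.125, 0.0777 and -0.00608). The serial numbers in the sample labels place DVC replicate 1 next to NTS replicate 4 and not NTS replicate 1, and that pair had r -0.00506. What these serial numbers mark is not stated, and they were not used for pairing. Other regions were not checked for pairing. With the replicate number as a block, Gcg was called between NTS and DVC (-6.74, edgeR adjusted p = 0.0351). Cck was called in the DMH, so that the DMH count rose from 0 to 1. The number is not known to mark a batch or shared animals, so these fits cannot speak to either.

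Over all genes, NTS against DVC had 14 calls (2 higher, 12 lower), 8 with the block, 20 with DESeq2 (9 higher, 11 lower) and 29 with limma on log2(TPM + 0.5) (1 higher, 28 lower). Limma on log2(TPM + 0.5), which changes the scaling, the pseudocount and the test together, put the median of all genes at -0.14 for NTS against the hypothalamus, -0.12 for the LHA and -0.40 for the VTA, where calls went from 1376 higher and 729 lower to 347 and 1899. For NTS against the hypothalamus they went from 1137 and 1064 to 539 and 1060. For DVC against the hypothalamus they went from 915 and 784 to 530 and 700, and for the LHA from 463 and 548 to 262 and 508. With the compared groups alone the DMH had 242 calls in place of 120 and the VMH 493 in place of 294, and the VMH had 187 with limma on log2(TPM + 0.1).

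Depth limits Gfral, with 34 counts in the atlas, and Gcg outside the DVC and the embryo, and 2 libraries in each of PVH, VMH and M leave those groups with little measure of spread.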
